A study of Mus musculus with 90 samples.

Results

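Major urinary proteins are small secreted proteins of the lipocalin family that the liver of male mice makes in large amounts, and that pass through the kidney into urine, where they bind volatile pheromones and carry scent marks. Their genes form a cluster of many near-identical copies on 1 chromosome, and their transcription in liver is known to depend on pulses of growth hormone acting through STAT5, with inputs from thyroid hormone, insulin and glucocorticoids. *Mup20* encodes darcin, which is itself a male pheromone, and *Mup5* is known from salivary and lacrimal glands. The 10 genes described here are *Mup1*, *Mup2*, *Mup3*, *Mup7*, *Mup11*, *Mup12*, *Mup15*, *Mup17*, *Mup20* and *Mup21*. They were chosen by name from earlier results of these data, with their lower level on caloric restriction at zeitgeber time (ZT) 12 known, and the choice used no threshold. They are 10 of the 21 numbered *Mup* genes among 27654 genes in the count tables, which also hold 26 *Mup* pseudogenes. Of the other 11 numbered genes, those that passed the tests of genotype or corticosterone are given beside them.

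The data are bulk RNA-seq counts of 90 livers in 3 experiments, collected at zeitgeber times with lights on at ZT0 and off at ZT12. A time series of 78 livers covers 6 time points, 4 h apart, on caloric restriction (3 livers a group, 36 in all) and on control diet (3 or 4 livers a group, 42 in all). Its WT mice carry GRfl/fl alleles of the glucocorticoid receptor (GR) gene *Nr3c1*, and its GR LKO mice carry GRfl/fl with Alb-Cre, which deletes the gene in hepatocytes. The strain is C57BL/6J, the study used males, and the labels give no age. Control diet is chow fed in restricted fashion at night, and caloric restriction ends at 40% fewer calories. The diet comparison holds 3 WT livers on caloric restriction and 3 WT livers on control diet, all at ZT12. The titles of those 3 controls name ad libitum feeding and their treatment label names night-restricted feeding. The corticosterone experiment holds 3 WT livers with corticosterone supplementation and 3 WT controls at ZT12. The titles of its controls read NR, and the study states night-restricted feeding during this treatment. Y-linked *Ddx3y*, *Eif2s3y*, *Kdm5d* and *Uty* had counts in all 90 livers. The labels name no batch, but in the time series each diet has its own count table and its own run of library names. Diet and library batch thus cannot be told apart there.

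Levels are given in CPM, counts relative to the total of the library, scaled within each experiment by the trimmed mean of M values (TMM), and "summed level" means the CPM of the 10 genes added up. Reads of near-identical copies are shared out between them by an estimate, and the value of a single gene is uncertain to that extent. All 10 genes lie on the minus strand of chromosome 4, between bases 60066469 and 62150863. Of the 31-base words in its transcripts in the reference annotation, which may differ from the one the authors used, *Mup15* had 0% that no transcript of another gene holds, *Mup12* had 7.92% and *Mup7* had 9.98%. *Mup3* had 69.9%, *Mup21* had 66.2% and *Mup20* had 35.5%. The levels of *Mup3*, *Mup21* and *Mup20* thus rest on the largest share of sequence of their own, and that of *Mup15* on none. *Mup15* shared 88.6% of its words with *Mup2*, and their coding sequences differed in 2 of 540 bases (99.63% identity). Over the 10 pairs with equal coding length, of 45 pairs, identity ran from 84.71% to 99.63%.

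In 2 livers on control diet most of the genes were far below their group, and the genotype tests, rhythm counts, correlations and ranges of single genes on control diet are also given without them, as settings added after the data were seen. In WT at ZT0, replicate 3 had 39.4 CPM of *Mup1* against 2082 and 899 CPM in the other 2 livers, and 17.9 CPM of *Mup15* against 2393 and 898.5 CPM. In GR LKO at ZT20, replicate 1 had 42.9 CPM of *Mup1* against 952 and 922 CPM, and 10.9 CPM of *Mup15* against 735 and 939 CPM. *Mup20* behaved otherwise, at 9968 CPM against 7027 and 7447 CPM in the first and at 5486 CPM against 1829 and 4075 CPM in the second. *Nr3c1* was in the range of the genotype in both (73.4 and 20.5 CPM). Marker lists of cell types differed too. The stellate cell list summed to 321 against 225.5 and 245 CPM in the first, and 354.5 against 192 and 238.5 CPM in the second. The Kupffer and myeloid list was higher (214 against 119 and 167.5, and 165 against 109 and 116 CPM), and the adipocyte list lower (2152 against 4267 and 4448, and 2881 against 6363 and 8623 CPM). The sum of the adipocyte list, here and below, is in effect the level of 1 gene, *Car3*. Lower than in the other livers were also the hepatocyte list (77326 against 80701 and 106964, and 73893 against 84561 and 85967 CPM) and the 4 Y-linked genes (103 against 143 and 145, and 98.7 against 122 and 124.5 CPM). The cholangiocyte list was at 149 against 39.3 and 63.0 CPM in the second. The part of cell composition in these 2 livers was not tested.

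On control diet the summed level in WT of the time series was 14076 CPM at the lowest, 48075 at the median and 70825 at the highest over 22 livers (27122, 49056 and 70825 CPM without the liver that stands apart). That was 4.60% of all counts on average, against 0.489% in WT on caloric restriction. In bulk tissue fewer cells of a type and less RNA per cell cannot be told apart, which holds for every level below. Per kilobase of transcript, the scale on which genes can be compared, *Mup7* was the highest in WT on control diet, at a mean of 18620 CPM per kb. *Mup20* (9122), *Mup3* (8722) and *Mup11* (8323 CPM per kb) followed with ranges that overlap. *Mup1* was at 1275, *Mup15* at 819, *Mup17* at 606.5, *Mup12* at 604, *Mup21* at 302 and *Mup2* at 70.9 CPM per kb. In the estimated counts the 10 genes thus spanned more than 2 orders of magnitude in 1 tissue. Both ends, *Mup7* and *Mup2*, depend on how reads of near-identical copies were shared out. In WT on caloric restriction the order differed, with *Mup3* first at 2778 CPM per kb, then *Mup20* at 937, *Mup7* at 784.5 and *Mup11* at 538.5, and *Mup15* last at 0.837 CPM per kb.

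In the diet comparison at ZT12, the contrast known when the genes were chosen, values are a description with no test. The summed level was 31687, 27602 and 38991 CPM in the 3 control livers and 1836, 896 and 1097 CPM in the 3 restricted livers. Every restricted liver was below every control, with a log2 ratio of means of −4.68. All 10 genes were lower in this way without overlap, beside 31.7% of the 11391 genes at a mean of 1 CPM or more, and the choice of genes fixes this direction. *Mup7* went from 6139, 7773 and 13909 CPM to 17.4, 5.09 and 25.9 CPM. *Mup3* went from 7971, 6576 and 7908 CPM to 1579, 788 and 891 CPM. The log2 ratio was −9.17 for *Mup7* and −2.79 for *Mup3*, and these were the largest and the smallest of the 10. *Mup12* was at 0.512, 0 and 0.600 CPM on restriction, where 3 counts in the liver without any would be 0.076 CPM. Marker lists, these among others, also separated without overlap. The adipocyte list went from 1197, 1179 and 1167 CPM to 282, 114 and 86.3 CPM. The hepatocyte list went from 80047, 81215 and 86178 CPM to 155136, 156989 and 162622 CPM. The endothelial list rose from 116, 149 and 153 CPM to 194, 194 and 222 CPM, and the stellate list from 217, 222 and 182 CPM to 302, 268 and 307 CPM. Their part in the *Mup* differences was not tested.

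**Figure D1:**
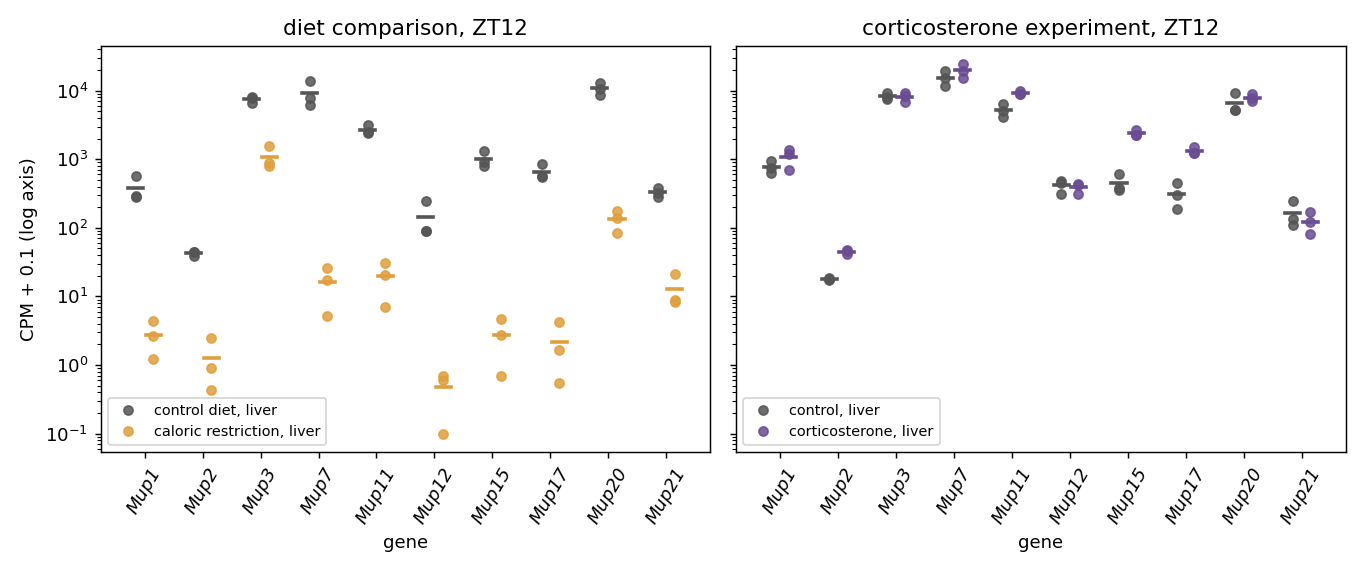
CPM + 0.1 on a log axis of each gene in each liver at ZT12, in the diet comparison (left) and the corticosterone experiment (right), with bars at group means. On restriction all 10 genes lay below the controls (*Mup7* 16.1 against 9274 CPM on average), and with corticosterone 4 genes lay above them (*Mup15* 2397 against 449 CPM).

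Other mice, those of the time series, had a lower level on caloric restriction at all 6 time points. In WT the summed level was 712 CPM at the lowest, 3267 at the median and 14077 at the highest on restriction, where the control diet gave 14076, 48075 and 70825 CPM. The ranges over all times overlapped by the liver that stands apart and 1 restricted liver, and at each time point the restricted livers were all below the controls. The ratio of mean control to mean restricted level was 28.5 at ZT16 and 5.17 at ZT20, the widest and the narrowest. In a fit with time point as covariate, all 10 genes fell on restriction in WT, beside 24.3% of genes tested that fell (called here and below at a Benjamini-Hochberg adjusted p under 0.05 over all genes tested, edgeR). In GR LKO all 10 also fell, beside 27.3%. *Mup15* had a log2 fold change of −10.1 in WT (adjusted p = 2.08e-15) and −5.97 in GR LKO. *Mup7* had −5.42 and −7.53, *Mup17* −7.68 and −6.25, and *Mup3* −1.84 and −1.70. Of the other numbered genes *Mup18* did not pass in WT (−0.52, adjusted p = 0.178). All 10 genes were thus lower on restriction with and without GR in hepatocytes, in livers where diet and library batch cannot be told apart.

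**Figure D2:**
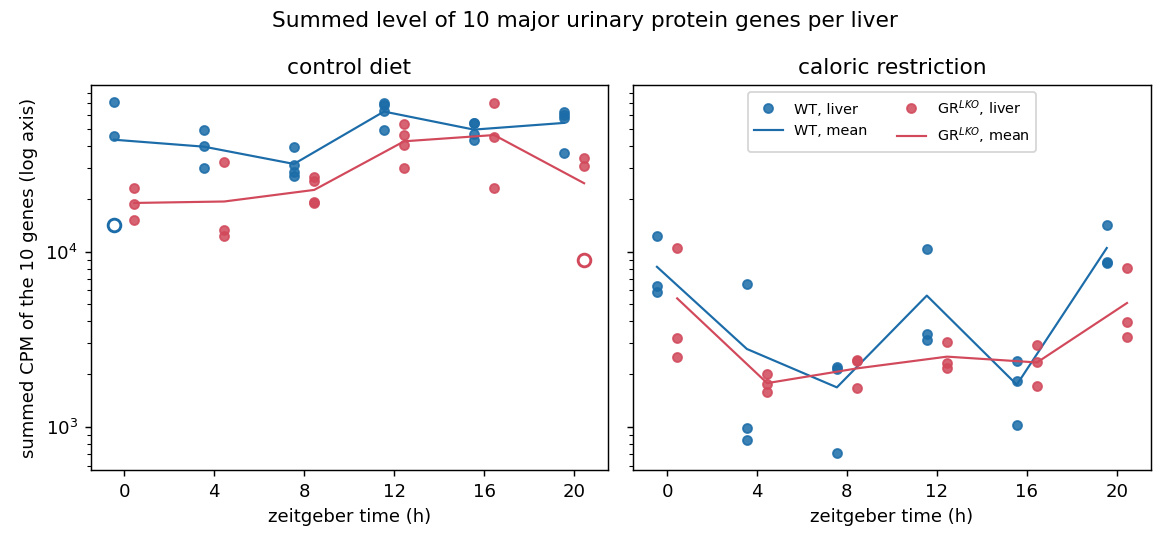
Summed CPM of the 10 genes per liver on a log axis against zeitgeber time, on control diet (left) and caloric restriction (right), with lines at group means and open circles for the 2 livers that stand apart. The restricted livers are lower at each time, from 10473 CPM on average at ZT20 to 1680 CPM at ZT8 in WT, against 31584 to 62861 CPM on control diet.

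The loss of GR was first looked at in *Nr3c1* itself. On control diet *Nr3c1* was 71.2, 87.3 and 118 CPM (lowest, median, highest) in WT and 16.1, 21.6 and 29.0 CPM in GR LKO. On caloric restriction it was 70.5, 93.7 and 113 CPM in WT and 21.4, 25.0 and 32.0 CPM in GR LKO. The genotypes did not overlap on either diet. With time point as covariate the log2 fold change was −1.96 on control diet (adjusted p = 9.47e-30) and −1.84 on caloric restriction (adjusted p = 4.86e-28).

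On caloric restriction 4 of the 10 genes passed the test of GR loss, in opposite directions, and 6 did not. *Mup15* was 0, 0 and 5.54 CPM (lowest, median, highest of 18 livers) in WT and 1.17, 10.1 and 87.6 CPM in GR LKO. Of the WT livers 10 had no count, where 3 counts would be 0.144 to 0.185 CPM, and every GR LKO liver had counts. *Mup17* was 0, 2.12 and 9.51 CPM in WT and 2.01, 10.4 and 84.4 CPM in GR LKO. Both genes were higher without GR, with ranges that overlap. *Mup7* was 2.62, 269 and 3699 CPM in WT and 10.3, 23.0 and 730.1 CPM in GR LKO. *Mup20* was 77.0, 579 and 1998 CPM in WT and 81.5, 137 and 2003 CPM in GR LKO. Both were lower without GR at the median, again with overlap.

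Over the day on restriction 2 of the 10 genes rose in GR LKO against WT, beside 14.3% of the 13041 genes tested, and 2 fell, beside 15.7%. The share that moved, 4 of 10, was near that of all genes, and the directions were mixed. For *Mup15* the log2 fold change was 4.58, with a standard error of 0.66 (adjusted p = 2.31e-06). *Mup17* rose by 2.47 (0.53, adjusted p = 0.000524). *Mup7* had −3.00 (0.63, adjusted p = 0.00041) and *Mup20* had −1.49 (0.31, adjusted p = 0.000338). The median log2 fold change was −0.41 over the 10 genes and 0.00 over all genes tested. *Mup7* lost its call without the livers of replicate 3 (adjusted p = 0.0757), and the other 3 genes kept theirs in all 7 settings. Among the other numbered genes *Mup5* rose by 2.22 (adjusted p = 1.41e-05) and *Mup19* by 1.70 (adjusted p = 0.0387).

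**Figure D3:**
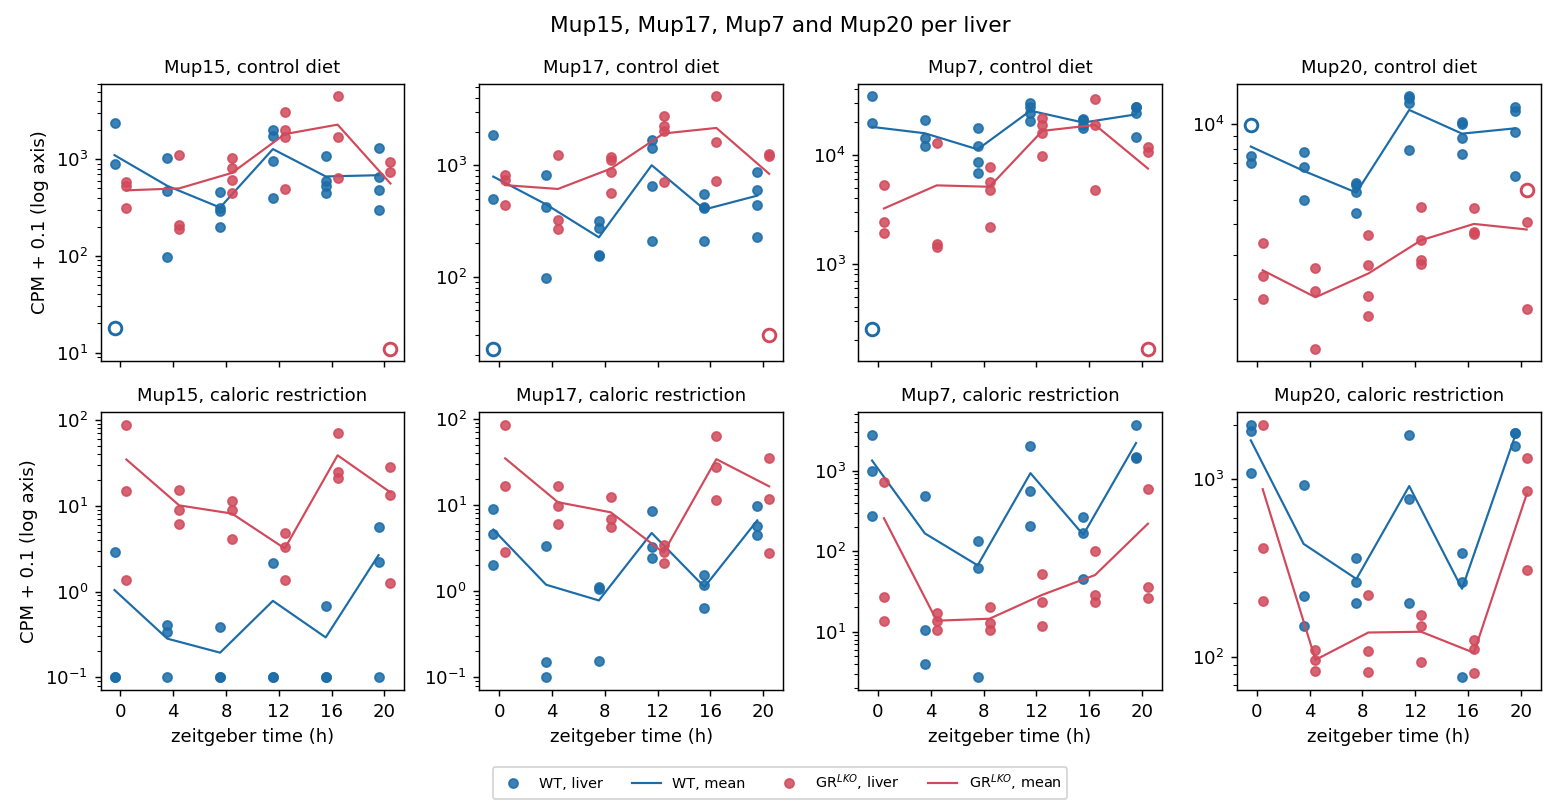
CPM + 0.1 on a log axis of *Mup15*, *Mup17*, *Mup7* and *Mup20* per liver against zeitgeber time, on control diet (top) and caloric restriction (bottom), with lines at group means and open circles for the 2 livers that stand apart. *Mup15* is higher in GR LKO than in WT on restriction (means 18.1 and 0.774 CPM), and *Mup20* is lower in GR LKO on control diet (means 3059 and 8465 CPM, or 2932 and 8393 CPM without the livers that stand apart).

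On control diet *Mup20* set the genotypes furthest apart. It was 4425, 7824 and 12948 CPM in WT and 1267, 2802 and 5486 CPM in GR LKO (1267, 2751 and 4691 CPM without the liver that stands apart). Of the 20 GR LKO livers 3 were above the lowest WT liver, 1 of them the liver that stands apart, and the rest of the groups did not overlap. *Mup7* was 6782, 20519 and 34660 CPM in WT and 1427, 7823 and 32882 CPM in GR LKO without the livers that stand apart, whose values were lower. *Mup1* was 39.4, 1183 and 2124 CPM in WT and 42.9, 570.2 and 1925 CPM in GR LKO (349, 1225 and 2124, and 259, 583 and 1925 CPM without those livers). *Mup12* was 9.80, 579 and 1139 CPM in WT and 7.53, 236 and 828 CPM in GR LKO (212, 579.7 and 1139, and 102, 276 and 828 CPM without them). These 3 were lower at the median in GR LKO with broad overlap. *Mup17* was 22.5, 423 and 1854 CPM in WT and 29.9, 988.5 and 4165 CPM in GR LKO (97.4, 424 and 1854, and 267, 1109 and 4165 CPM without them), higher at the median without GR.

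Over the day on control diet 4 of the 10 genes fell in GR LKO, beside 8.1% of the 12834 genes tested, and 1 rose, beside 9.5%. The log2 fold change of *Mup20* was −1.43 (standard error 0.12, adjusted p = 1.66e-11). *Mup7* had −1.20 (0.37, adjusted p = 0.0185), *Mup12* −1.02 (0.29, adjusted p = 0.0111) and *Mup1* −0.82 (0.27, adjusted p = 0.032). *Mup17* rose by 1.12 (0.38, adjusted p = 0.0365). The median over the 10 was −0.32, beside 0.00 over all genes tested. Without the 2 livers that stand apart 7 of the 10 passed, with *Mup3* at −0.21 (adjusted p = 0.00113) and *Mup11* at −0.39 (adjusted p = 0.0383) added, *Mup7* at −1.14 (adjusted p = 0.00194) and *Mup17* still higher (adjusted p = 0.00685). Without the WT liver at ZT0 alone 6 passed. Leaving out all livers of replicate 1 left 2 genes, *Mup17* and *Mup20*, and leaving out replicate 4 left 3. *Mup17* kept its call in 7 of 11 settings and lost it with the replicate block (adjusted p = 0.0805) and without replicate 2 (log2 fold change 0.67, adjusted p = 0.447), replicate 3 (adjusted p = 0.116) or replicate 4 (adjusted p = 0.0605). Among the other numbered genes *Mup18* rose by 1.08 (adjusted p = 1.65e-09), *Mup5* by 0.90 (adjusted p = 2.55e-05) and *Mup19* by 0.80 (adjusted p = 0.0085). At ZT8 the summed level was 27122 to 39607 CPM in WT and 18839 to 26452 CPM in GR LKO. The other numbered genes together were at 8643 to 12208 CPM in WT and 14441 to 20694 CPM in GR LKO. Neither sum overlapped there, and the sum of all numbered genes overlapped between genotypes at every time point. Away from ZT8 the sum of the other numbered genes overlapped too. How reads were shared out between copies in each genotype was not tested.

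Whether the genotype difference depends on diet was tested as an interaction, in which a batch effect common to both genotypes drops out. Of the 10 genes 1 passed, *Mup15*, with a log2 difference of 4.13 (standard error 0.78, adjusted p = 0.00101), beside 0.621% of the genes tested that were higher in this sense. Thus the level assigned to *Mup15* was raised more in GR LKO on restriction than on control diet, where it did not pass the genotype test. In WT on restriction *Mup15* had no count in 10 of 18 livers, and the size of this difference rests in part on those. Of the words in its transcript, 0% are held by no other gene. How far the sharing of reads between copies sets the difference was not tested. The call of *Mup15* was lost without the livers of replicate 1 or of replicate 3 (highest adjusted p = 0.0622). It held without the livers that stand apart. *Mup7* had −1.81 (adjusted p = 0.191) and *Mup17* had 1.31 (adjusted p = 0.351), and neither passed the interaction test. *Mup5*, of the other numbered genes, had 1.31 (adjusted p = 0.0361).

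At ZT12 alone on caloric restriction *Mup7* was 207.5, 2026 and 559 CPM in WT and 23.0, 51.3 and 11.7 CPM in GR LKO. *Mup11* was 222, 1400 and 257 CPM in WT and 43.1, 54.6 and 30.4 CPM in GR LKO. *Mup1* was 40.2, 181 and 51.3 CPM in WT and 12.3, 21.9 and 8.14 CPM in GR LKO. In these 3 genes every GR LKO liver was below every WT liver, and WT replicate 2 was by far the highest. *Mup20* was 773, 1755 and 200.3 CPM in WT and 172, 93.9 and 150 CPM in GR LKO, also without overlap. In all 4 of the 10 genes were lower without overlap, beside 20.3% of the genes at a mean of 1 CPM or more. *Nr3c1* was 103, 98.7 and 104 CPM in WT and 30.8, 32.0 and 30.7 CPM in GR LKO. The same 4 genes fell in the test, beside 7.84% of the genes tested. The log2 fold change was −5.01 for *Mup7* (standard error 0.96, adjusted p = 0.015) and −3.87 for *Mup11* (0.76, adjusted p = 0.0166). It was −2.67 for *Mup1* (0.64, adjusted p = 0.0315) and −2.71 for *Mup20* (0.69, adjusted p = 0.0396). With 1 liver left out the calls changed, to 0 genes without GR LKO replicate 1 or replicate 3, 1 without GR LKO replicate 2 and 3 without WT replicate 1. Over all settings the log2 fold change of *Mup7* was −5.73 to −3.74 (adjusted p at most 0.0594) and that of *Mup11* −4.27 to −2.49 (adjusted p at most 0.0696). For *Mup1* it was −3.14 to −1.70 (adjusted p at most 0.104) and for *Mup20* −3.19 to −1.82 (adjusted p at most 0.138). In a single fit of all restricted livers of the series, 3 of the 10 passed at ZT12. Without WT replicate 2, 3 of the 10 genes fell and *Mup15* rose. Among the other numbered genes *Mup14* had −1.82 (adjusted p = 0.0339) and *Mup5* 1.64 (adjusted p = 0.0403).

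At the other time points on restriction the genes that did not overlap between genotypes were fewer and went both ways, beside the share of genes that did so in each direction. At ZT4 2 of the 10 were higher in GR LKO, beside 10.4%, and 1 was lower, beside 11.5%. At ZT8 3 were higher, beside 12.4%, and at ZT16 3 were higher, beside 12.5%. At ZT20 2 were lower, beside 16.2%, and at ZT0 all 10 overlapped.

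Markers moved as well at ZT12 on restriction. The Kupffer and myeloid list summed to 43.8, 71.4 and 52.3 CPM in WT and 118, 92.9 and 155 CPM in GR LKO, without overlap, and 3 of its 8 genes rose, beside 7.42% of all genes. The hepatocyte list summed to 162507, 164074 and 168478 CPM in WT and 120479, 127903 and 112199 CPM in GR LKO, and 5 of its 7 genes fell, beside 7.84%. The adipocyte list was at 285, 436 and 278 CPM in WT and 1498, 1835 and 1841 CPM in GR LKO, with 1 of 4 up, and the endothelial list at 164, 150 and 180 CPM and 212, 197 and 221 CPM, with 1 of 6 up. The exocrine pancreas list was at 1283 CPM in WT replicate 3 and below 1 CPM in the other 5 livers, and without that liver 4 of the 10 *Mup* genes still fell. The part of the other markers in the *Mup* differences at ZT12 was not tested.

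At ZT12 on control diet *Mup20* was 12143, 12700 and 12948 CPM in 3 WT livers and 7870 CPM in the 4th. In the 4 GR LKO livers it was 2854, 4691, 2751 and 3458 CPM. The genotypes did not overlap. *Nr3c1* was 84.4, 89.6, 76.8 and 89.4 CPM in WT and 19.2, 21.2, 20.4 and 25.3 CPM in GR LKO. *Mup1* was 2124, 1340, 1451 and 1420 CPM in WT and 1323, 1212, 807 and 745.5 CPM in GR LKO, and *Mup12* was 1139, 687, 764 and 681 CPM and 591, 574, 370.0 and 276 CPM. Thus 3 of the 10 were lower without overlap, beside 4.15%. In the test *Mup20* alone of the 10 passed, and fell (log2 fold change −1.73, standard error 0.21, adjusted p = 0.00344), beside 1.27% of the genes tested. With DESeq2 3 passed, with *Mup12* (adjusted p = 0.0144) and *Mup1* (adjusted p = 0.0458) added. The share of 1.27% belongs to the edgeR fit, and that of all genes with DESeq2 is not given. Among the other numbered genes *Mup18* rose by 1.25 (adjusted p = 0.0343). Of the 7 genes of the hepatocyte list 4 fell here too, with sums of 79720, 94438, 76934 and 88099 CPM in WT and 66749, 62522, 69974 and 81556 CPM in GR LKO that overlap. The adipocyte list was at 3734, 2569, 3011 and 2245 CPM in WT and 4088, 3961, 6223 and 4720 CPM in GR LKO. These sums did not overlap, and 0 of its 4 genes tested passed.

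At the other time points on control diet, genes also separated without overlap. At ZT4 5 of the 10 were lower in GR LKO (*Mup1*, *Mup3*, *Mup12*, *Mup20* and *Mup21*), beside 7.89% of genes, and at ZT0 1, beside 9.66%. At ZT8 2 were lower, beside 3.48%, and *Mup17* was higher, beside 3.98%. At ZT16 1 was lower, beside 8.81%, and *Mup17* was higher, beside 8.23%, and at ZT20 3 were lower, beside 6.39%. *Mup20* was among the lower genes at all 6 time points.

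With corticosterone the summed level was 55635, 47918 and 47538 CPM, and in the controls 36012, 30460 and 46262 CPM. Every treated liver was above every control, by a ratio of means of 1.34, and the control of replicate 3 came close. *Mup15* was 605, 383 and 359 CPM in controls and 2267, 2668 and 2257 CPM with corticosterone. *Mup17* was 446, 303 and 187.5 CPM in controls and 1507, 1230 and 1233 CPM with corticosterone. *Mup2* was 18.2, 17.1 and 17.9 CPM in controls and 47.6, 45.9 and 41.5 CPM with corticosterone. In all 3 genes the groups lay far apart. *Mup11* was 5132, 4109 and 6338 CPM in controls and 9782, 9010 and 8972 CPM with corticosterone, also without overlap. *Nr3c1* was 74.3, 77.4 and 69.1 CPM in controls and 61.8, 83.2 and 66.3 CPM with corticosterone, with overlap.

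These 4 genes lay above the controls without overlap, beside 17% of the 11058 genes at a mean of 1 CPM or more, and the same 4 rose in the test, beside 4.47% of the genes tested. For *Mup15* the log2 fold change was 2.42, with a standard error of 0.22 (adjusted p = 0.00212), and for *Mup17* 2.08, with 0.29 (adjusted p = 0.0101). *Mup2* rose by 1.34 (0.09, adjusted p = 0.00121) and *Mup11* by 0.83 (0.17, adjusted p = 0.027). The other 6 genes overlapped between the groups, among them *Mup3*, at a ratio of means of 0.984, and *Mup20*, at 1.21. The median over the 10 was 0.43, beside −0.01 over all genes tested. Without the control of replicate 2 the count was 2, *Mup2* and *Mup15*. *Mup11* kept its call in 5 of 10 settings, with a log2 fold change of 0.69 to 1.00, and lost it with the replicate block (adjusted p = 0.0593) and with 4 of the 6 livers left out in turn (highest adjusted p = 0.0932). Of the other numbered genes *Mup9* rose by 1.29 (adjusted p = 0.00599), *Mup19* by 0.93 (adjusted p = 0.0154), *Mup14* by 0.77 (adjusted p = 0.0483) and *Mup16* by 0.74 (adjusted p = 0.0282).

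Of the 10 genes *Mup15* and *Mup17* were thus raised both with corticosterone in WT and in GR LKO against WT on restriction, and so was *Mup19* among the other numbered genes. Of their 31-base words, *Mup15* and *Mup19* had 0% that no other gene holds, and *Mup17* had 13.8%. Whether these 3 genes rose separately or share the same reads was not tested. The genotype result is over the day, and at ZT12 on restriction, the time point of the corticosterone data, none of the 3 passed (*Mup15* 2.22, adjusted p = 0.266; *Mup17* −0.77, adjusted p = 0.331; *Mup19* −0.39, adjusted p = 0.78). *Mup2*, which holds 88.6% of the words of *Mup15*, rose with corticosterone and did not pass in the genotype comparison on either diet.

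Over the day the highest mean of the summed level in WT on control diet was at ZT12 (70064, 68781, 63288 and 49310 CPM) and the lowest at ZT8 (39607, 28510, 31099 and 27122 CPM). These 2 time points did not overlap, at a ratio of means of 1.99. In WT on restriction the highest mean was at ZT20 (8609, 8733 and 14077 CPM) and the lowest at ZT8 (712, 2133 and 2196 CPM), at a ratio of 6.23. Here ZT16 was close to ZT8, at 1819, 1019 and 2382 CPM. In GR LKO the time of the highest mean rests on 1 liver on each diet. On control diet it was ZT16 (23128, 70459 and 44908 CPM, a mean of 46165), with ZT12 next at a mean of 42528 CPM, and the lowest was ZT0 (18733, 22965 and 15081 CPM). That lowest place also rests on 1 liver, as ZT4 had 13298, 32295 and 12277 CPM. On restriction the highest mean was at ZT0 (10481, 3218 and 2516 CPM, a mean of 5405), with ZT20 next at a mean of 5086 CPM, and the lowest was at ZT4 (1576, 1754 and 1999 CPM). On restriction 9 of the 10 genes in WT had their highest mean at ZT20, and on control diet 9 had it at ZT12 (6 without the liver that stands apart).

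A test for 24 h rhythms (JTK_CYCLE, adjusted p under 0.05 and amplitude above 0.1 on the variance-stabilized scale) called few of the genes. In WT it called 0 of 10 on control diet, beside 30.8% of all genes, and 0 of 10 on restriction, beside 27.6%. At unadjusted p under 0.05 there were 3 and 4 genes. Here and below, counts at unadjusted p have no share of all genes to compare with. An edgeR test of sine and cosine of time called 3 of the 10 on control diet, beside 55.8% of genes tested, and 2 on restriction, beside 53.6%. An edgeR test of any difference between time points called 2 on control diet, beside 50%, and 9 on restriction, beside 64.3%. In GR LKO on control diet *Mup20* (adjusted p = 0.0308) and *Mup3* (adjusted p = 0.0363) were called, beside 27.3% of all genes. Without the liver that stands apart the count was 5, and leaving out all livers of 1 replicate number gave 0 to 4, where 2057 to 4637 of all genes were called, against 5113 with all livers. In GR LKO on restriction *Mup2* was called (adjusted p = 0.0469), beside 25.3%, and none of the 10 was called without any 1 of the replicate numbers, where 979 to 1716 of all genes were called, against 4795. The sine and cosine test called 5 of the 10 in GR LKO on control diet, beside 51%, and 6 on restriction, beside 49.5%. The test of any difference between time points called 0 on control diet, beside 42%, and 8 on restriction, beside 60.5%. The interaction of genotype and time point was called for 0 of the 10 genes on control diet, beside 0.6% of all genes, and for 0 on restriction, beside 5.34%. Those are edgeR counts, at unadjusted p under 0.05 there were 0 and 1 genes (3 on control diet without the livers that stand apart), and DESeq2 also called 0 on either diet.

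The genes varied together between livers of 1 group. Over the 36 restricted livers, with the mean of each genotype and time point taken off, the median Pearson correlation of log2 CPM over the 45 pairs was 0.776, from 0.353 (*Mup15* with *Mup20*) to 0.962 (*Mup7* with *Mup11*). Over the 42 livers on control diet the median was 0.834, from −0.268 to 0.983, and over 40 livers without those that stand apart it was 0.520, from 0.0587 to 0.943. *Mup20* was the least like the others over all 42 livers on control diet, at a median of −0.185 with the others. Without the 2 livers that stand apart its median was 0.265, and that of *Mup21* was 0.266. The pairs share libraries and, for near-identical copies, reads. The spread within groups was itself large on restriction, with a coefficient of variation of the summed level of 117% at ZT4 in WT (837, 980.0 and 6528 CPM).

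The 5 genes outside the family whose log2 CPM followed the summed level most closely were *Hao1* (mean correlation 0.831 over the 2 diets, 78 livers), *Cyp7b1* (0.824), *Ugt2b1* (0.822), *C8a* (0.795) and *Slco1a1* (0.781), of 8615 genes compared. Without the 2 livers that stand apart the first 4 remained the closest to the summed level, at 0.825, 0.818, 0.820 and 0.807, and *Serpina1e* (0.747) was the 5th. These correlations include the differences between genotypes and time points. With group means taken off, they were 0.884, 0.852, 0.888, 0.818 and 0.826 for *Hao1*, *Cyp7b1*, *Ugt2b1*, *C8a* and *Slco1a1* on restriction and 0.506, 0.582, 0.512, 0.507 and 0.392 on control diet without the livers that stand apart (0.538, 0.658, 0.586, 0.52 and 0.733 with them).

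Of the genes listed as regulators of *Mup* transcription, the growth hormone receptor gene *Ghr* rose with loss of GR on both diets, by 0.39 (adjusted p = 7.12e-07) on restriction and 0.13 (adjusted p = 0.0129) on control diet, and the difference between diets was 0.26 (adjusted p = 0.0198). *Cebpb* also passed the test of that difference, at −0.63 (adjusted p = 0.034). It had −0.53 (adjusted p = 0.000452) on restriction and 0.09 (adjusted p = 0.438) on control diet. Of the 22 regulators 2 rose and 5 fell with loss of GR on restriction, beside 14.3% and 15.7% of all genes. On control diet 1 rose and 3 fell, beside 9.5% and 8.1%, and *Nr3c1* is among those that fell on both diets. With diet in WT 14 of the 22 changed, 4 up, beside 25.1% of all genes, and 10 down, beside 24.3%, and the largest was *Cux2*, a repressor known from female liver, at 5.20 (adjusted p = 1.37e-13). *Cux2* was 0.0769, 0.403 and 0.672 CPM (lowest, median, highest) in WT on control diet and 0.635, 12.9 and 78.3 CPM on restriction. With corticosterone 4 of 21 tested changed, 2 up, beside 4.47% of all genes, and 2 down, beside 3.64%: *Cebpb* at 2.04 (adjusted p = 0.00128), *Hnf4a* at 0.84 (adjusted p = 0.0229), *Cebpa* at −0.68 (adjusted p = 0.02) and *Stat5a* at −0.66 (adjusted p = 0.0216). Their part in the *Mup* differences was not tested.

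Like the *Mup* genes, the other genes of liver known to be higher in males were lower on restriction. In WT of the time series 24 of 24 tested fell (median −2.03, beside 0.02 over all genes), and of genes known to be higher in females 23 of 25 rose (median 3.61), beside 24.3% of all genes that fell and 25.1% that rose. With loss of GR on control diet the male list had 3 up and 16 down of 24 (median −0.43) and the female list 16 up and 1 down of 22 (median 1.70), beside 9.5% of all genes up and 8.1% down. On restriction the male list had 5 up and 12 down of 23 (median −0.52) and the female list 14 up and 4 down of 27 (median 0.73), beside 14.3% of all genes up and 15.7% down. With corticosterone 1 of 24 in the male list and 1 of 14 in the female list rose, near the 4.47% of all genes that rose.

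Of 13 other lipocalin genes of liver, 5 of 10 tested rose with corticosterone, beside 4.47% of all genes, first *Lcn2* (log2 fold change 6.97, adjusted p = 0.000916) and *Orm3* (3.33, adjusted p = 0.0053). Of 25 other secreted proteins of hepatocytes, 7 rose with corticosterone. With loss of GR on restriction 1 lipocalin rose and 5 fell of 10, and 1 secreted protein rose and 14 fell, beside 14.3% of all genes up and 15.7% down. With loss of GR on control diet 6 lipocalins fell, among them *Obp2a* at −4.27 (adjusted p = 1.73e-10), and 1 secreted protein rose and 16 fell, beside 9.5% up and 8.1% down. With diet in WT 8 of the 25 secreted proteins rose and 8 fell, and of the lipocalins 6 rose and 1 fell, beside 25.1% up and 24.3% down.

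Markers of other cell types were looked at in the same comparisons. Of all genes, for comparison with the counts below, 14.3% rose and 15.7% fell with loss of GR on restriction, 9.5% and 8.1% on control diet, 25.1% and 24.3% with diet in WT, and 4.47% and 3.64% with corticosterone. The adipocyte list (8 genes, 4 tested) is in effect 1 gene, *Car3*, at a mean of 3283 of 3308 CPM over all livers. It summed to a mean of 3312 CPM in WT on control diet, 1254 in WT on restriction, 5902 in GR LKO on control diet and 3714 CPM in GR LKO on restriction, and 2 of 4 rose with loss of GR on restriction and 3 of 4 on control diet. With diet in WT 1 of 4 rose and 3 fell. In the corticosterone experiment it was 2905 CPM in controls and 1562 CPM with treatment, with 2 of 4 down. Other lists also separated there without overlap, the erythrocyte list at 699, 632 and 785 CPM in controls and 327, 557.5 and 301 CPM with corticosterone, with 0 of 5 tested that passed. The endothelial list was at 95.2, 102 and 119.8 CPM in controls and 77.1, 85.2 and 92.5 CPM with treatment, with 1 of 6 down, and the neutrophil list at 0.0719, 0.621 and 0.615 CPM and 1.82, 1.78 and 1.44 CPM, with 0 of 1 tested that passed. The lymphocyte list was at 0.863, 2.30 and 2.67 CPM in controls and 0.455, 0.593 and 0.684 CPM with treatment, with none of its genes tested. The correlation of the adipocyte list with the summed *Mup* level within groups was 0.687 over 36 restricted livers and 0.415 over 42 control livers (−0.228 without those that stand apart). In the same order it was −0.445 and −0.419 (−0.21) for the cholangiocyte list and −0.303 and −0.482 (−0.212) for the stellate list. It was 0.051 and −0.0556 (−0.478) for the hepatocyte list and 0.132 and 0.552 (0.0551) for the Y-linked genes. The other lists ran from −0.3 (lymphocyte) to 0.15 (Kupffer and myeloid). The hepatocyte list (7 genes, *Alb* the most abundant) summed to 86937 CPM in WT on control diet and 129568 CPM in WT on restriction, where the *Mup* level was lower, with 4 up and 1 down. With loss of GR 5 of its 7 genes fell on restriction and 4 on control diet, and 2 rose with corticosterone. The endothelial list (6 genes, *Clec4g* the most abundant) went from 128 CPM in WT on control diet to 174 CPM on restriction, with 5 up, and was 204 CPM in GR LKO on restriction, with 4 up against WT. The Kupffer and myeloid list (8 genes, *Clec4f* the most abundant) went from 110.1 to 133 CPM with diet in WT, with 3 up. With diet in GR LKO all 8 of its genes rose (median log2 fold change 0.57). All 6 genes of the endothelial list also rose there (median 0.64), and 2 of 6 of the stellate list (median 0.23). The adipocyte list had 1 up and 3 down of 4 there, and the hepatocyte list 4 up and 1 down of 7, where 27.3% of all genes fell. Of the lists for stellate cells, cholangiocytes, erythrocytes, lymphocytes, neutrophils and exocrine pancreas at most 1 gene each passed with loss of GR over the day, with diet in WT or with corticosterone. The exocrine pancreas list reached 789 CPM in 1 WT liver on control diet at ZT16, replicate 2, beside the 1283 CPM at ZT12 on restriction, and at most 4.90 CPM in the other 88 livers. The part of these cell types in the *Mup* differences was not tested. Of the list for salivary and lacrimal gland 8 of 10 genes were in the tables, 7 had no count in any liver, and *Aqp5* had 0.00925 CPM on average.

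Sequence upstream of the start was available from RefSeq (GRCm38.p6) for 7 of the 10 genes, and was missing for *Mup1*, *Mup12* and *Mup20*. In the 250 bases before the start, on both strands, ATCAAT (a core of ONECUT1 motifs) was in 7 of 7, beside 6.97% of 27025 promoters, and TATATAA (the letters of a TATA box) in 5 of 7, beside 3.26%. TGTTCT (a core of the GR motif) was in 2 of 7, *Mup3* and *Mup21*, beside 16.2%. TTCNNNGAA (STAT5) and TTGCNNAA (C/EBP) were in 0 of 7, beside 7.18% and 9.55%. The windows are not independent sequences, as pairs shared up to 89.6% of their short words (*Mup15* with *Mup17*). Other pairs shared few or none (0% for *Mup2* with *Mup21*). Counts out of 7 are thus not counts of unrelated promoters. The windows follow the annotated starts and do not line up: that of *Mup11* ends within the letters of the TATA box, that of *Mup7* ends 19 bases from the first base of its last ATCAAT, which lies at 146 in *Mup15*. For TATATAA, absence from a window can thus come from where the start is annotated. Where *Mup3* and *Mup21* hold TGTTCT, the windows of *Mup7* and *Mup11* have TGTTTT, those of *Mup15* and *Mup17* begin within this stretch and also have T in place of the C, and that of *Mup2* begins after it. A match is a description of letters and not a site of binding. The sequences of *Mup15* and *Mup17*, which rose with corticosterone and with loss of GR on restriction, are shown beside those of *Mup3* and *Mup21*, which rose in neither, all on the minus strand and ending at the base before the start, with capitals for matches to the motifs above.

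*Mup15*, chr4:61439705-61439954: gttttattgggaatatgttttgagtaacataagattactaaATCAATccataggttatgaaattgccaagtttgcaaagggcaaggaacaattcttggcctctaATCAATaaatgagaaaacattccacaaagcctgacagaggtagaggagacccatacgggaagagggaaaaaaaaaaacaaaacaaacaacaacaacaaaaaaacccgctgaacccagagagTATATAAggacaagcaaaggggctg

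*Mup17*, chr4:61595833-61596082: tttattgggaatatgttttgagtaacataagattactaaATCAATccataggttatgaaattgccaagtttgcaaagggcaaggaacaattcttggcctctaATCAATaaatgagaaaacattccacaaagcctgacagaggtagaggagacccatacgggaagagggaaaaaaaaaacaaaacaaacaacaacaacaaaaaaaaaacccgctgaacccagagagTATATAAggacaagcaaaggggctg

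*Mup3*, chr4:62087318-62087567: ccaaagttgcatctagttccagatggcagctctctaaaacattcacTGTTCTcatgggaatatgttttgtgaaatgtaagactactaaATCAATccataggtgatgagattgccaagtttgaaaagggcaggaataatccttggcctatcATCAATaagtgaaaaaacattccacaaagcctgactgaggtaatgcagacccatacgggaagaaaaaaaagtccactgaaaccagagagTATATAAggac

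*Mup21*, chr4:62150842-62151091: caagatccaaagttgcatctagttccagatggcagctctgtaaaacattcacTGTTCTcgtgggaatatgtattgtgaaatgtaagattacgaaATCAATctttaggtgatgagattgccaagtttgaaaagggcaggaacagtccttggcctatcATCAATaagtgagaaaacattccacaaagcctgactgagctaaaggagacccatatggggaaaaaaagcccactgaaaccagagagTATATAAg

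*Mup15* and *Mup17* have the same 3 matches in nearly the same places, and *Mup3* and *Mup21* have these and TGTTCT further upstream, where the first 2 have T in place of the C.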

How the data were processed

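RNA of 90 mouse livers was measured by bulk RNA-seq: 78 of a time series, 6 of a diet comparison and 6 of a corticosterone experiment. The authors ran FastQC 0.11.9, then Salmon 1.8.0, and used tximport 1.18.0 to go from transcripts to genes. The 4 deposited tables hold the resulting expected counts per gene of the authors, not normalized, on build mm10. The transcript annotation is not stated. A table of variance-stabilized values deposited for the corticosterone experiment was not used, because the counts of the same libraries are there. Of 27654 gene IDs 27244 were matched to a symbol, and the other 410 hold 0.107% of all counts. No libraries were identical.

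Counts were rounded and tested with edgeR 4.0.16 (R 4.3.3): filterByExpr at a minimum count of 10, TMM, quasi-likelihood F tests, Benjamini-Hochberg adjustment over all genes tested, called under 0.05. Over the day the fits held time point as a factor, and the ZT12 and corticosterone fits used only their own libraries. Interactions of genotype with diet (1 coefficient) and with time point (5 coefficients) were tested in the same way. Rhythms were tested per group with JTK_CYCLE (period 24 h, 6 phases, exact null) on variance-stabilized values of DESeq2 1.42.0. Counts of genes that do not overlap between groups were taken over genes with a mean of at least 1 CPM. Correlations used log2 CPM with a prior count of 2, and genes most like the family were sought among genes at a mean of 5 CPM or more on both diets. The edgeR and JTK_CYCLE tests were tested on simulated data.

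Median depth was 17386700 counts per liver in the time series on caloric restriction, 13427104 on control diet, 38733781 and 37159038 in the restricted and control livers of the diet comparison, and 14610479 and 14252298 in the treated and control livers of the corticosterone experiment. The 10 genes and the lists of regulators, male-biased, female-biased, lipocalin, secreted protein and cell type marker genes were chosen with earlier results of these data known. Alternatives were DESeq2, no filter, library scaling without the *Mup* family, replicate number as a replicate block, leaving out each replicate, 1 fit for all time points and other rhythm tests. Settings without the 2 livers that stand apart were added after the data were seen. Replicate numbers were not blocked in the first choice of fit because the labels do not say what they mark.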

Additional observations from a re-analysis of the deposited data

Results flagged for a closer look

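Each of the 10 genes and their summed level were compared between the 4 livers of each group of 4 with Dixon's gap test, which by chance alone flags about 1 in 20 groups, in 66 tests over 6 groups. It found 2 livers, both in WT on control diet at ZT12. *Mup1* was 2124 CPM in replicate 1, against 1340 to 1451 CPM in the other 3, with a gap of 0.858 of the range. *Mup20* was 7870 CPM in replicate 4, against 12143 to 12948 CPM in the other 3, with a gap of 0.841 of the range. The interaction of genotype and diet also stood out for 2 genes, *Mup15* with a log2 difference of 4.13 and *Mup5* with 1.31.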

How the results depend on the processing

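No result reversed its direction. Of 344 single genes in a comparison, under 3267 settings in all, 2981 kept their side of the threshold and 286 lost it. The cause of each change was not tested. Counts under other settings are given without the share of all genes unless it is stated. Genes called of 10 with loss of GR at ZT12 on restriction: 4, with DESeq2 4, with 1 fit for all time points 3, with the replicate block 4, with livers left out 0 to 4. At ZT12 on control diet: 1, with DESeq2 3. Over the day on restriction: 4, with a replicate left out 3 to 4. Over the day on control diet: 5, with the replicate block 4, with a replicate left out 2 to 4, without both livers that stand apart 7. Genotype by diet: 1, with a replicate left out 0 to 1. Genotype by time point: 0 on both diets under every setting. Corticosterone: 4, with the replicate block 3 (*Mup2*, *Mup15*, *Mup17*), with a liver left out 2 to 4. Diet over the day: 10 under every setting. Rhythmic in GR LKO on restriction: 1, filtered 2, sine and cosine 6 (beside 49.5% of genes), time point as a factor 8 (beside 60.5%), with a replicate left out 0 (979 to 1716 of all genes called, against 4795). In GR LKO on control diet: 2, filtered 3, sine and cosine 5 (beside 51%), factor 0 (beside 42%), with a replicate left out 0 to 4, without the liver that stands apart 5. In WT on restriction: 0, filtered 1, sine and cosine 2 (beside 53.6%), factor 9 (beside 64.3%). In WT on control diet: 0, filtered 1, sine and cosine 3 (beside 55.8%), factor 2 (beside 50%). The log2 ratio of the diet comparison was −5.04 to −4.48 with a liver left out. The mean summed level of all livers, 23817 CPM, was 34114 CPM with every numbered *Mup* gene. Livers with the same replicate number in the comparisons at ZT12, the only ones looked at for pairing, had correlations of −0.0446 to 0.187. *Mup15* had no count in 10 of 18 WT livers on restriction, and whether depth or the sharing of reads between copies gives these zeros was not tested.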
